A study of Mus musculus with 24 samples.

Results

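The effect of a diet rich in palmitic acid was measured in the neural fraction of the stroma of oral tumours whose cancer cells carried shGAL, a short hairpin RNA against the galanin gene. The members were chosen by sample title: 3 arrays of shGAL on the palmitic diet and 3 arrays of shGAL on the control diet, 6 of the 24 arrays of the study, across 11844 genes. The cancer cells came from SCC25, an established line of human oral squamous carcinoma, and were grown orthotopically in NSG mice, which lack mature lymphocytes and natural killer cells and keep myeloid cells of reduced function. Mice with shGAL tumours received the palmitic acid (PA)-rich diet or the control diet. The groups set beside them carried shEGR2_40.9 or shEGR2_38.9, both hairpins against EGR2, or PLKO, the non-targeting hairpin, each on the same 2 diets with 3 arrays a group. All groups thus shared the xenograft, the host and a hairpin vector, and shGAL rests on 1 hairpin.

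Palmitic acid is a saturated fatty acid that cells take up, store, oxidise or build into membranes. Galanin is a neuropeptide made by sensory and other neurons, and acts through the G protein-coupled receptors Galr1, Galr2 and Galr3. Neural cells around a tumour include Schwann cells, the glia that wrap peripheral axons and that can take on a repair state after injury, and the ends of sensory and autonomic axons. Most cells make sterols through the mevalonate pathway, whose enzymes are switched on together by the transcription factor SREBP2 when membrane cholesterol is low and are held back by Insig proteins when it is high.

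Levels are log2 array values, and differences are log2 differences, PA-rich minus control, so that 1 stands for a doubling. The series calls the 3 arrays of a group technical replicates, and how many animals they come from is not stated. P-values therefore measure the spread between arrays only. With shGAL, arrays of the same replicate number from the 2 diets were scanned in the same batch, so each replicate number gives a within-batch difference. The 6 arrays had medians between 6.77 and 6.79 and correlated with their own group at 0.989 to 0.995 across genes. The 3′ minus 5′ signal of the Gapdh control probes, a sign of RNA integrity, was 0.009, -0.004 and 0.077 on the PA-rich diet, against -0.050, -0.090 and -0.118 on the control diet. The diets did not overlap in this measure, and its part in the results below was not tested. One array outside shGAL, replicate 3 of the control-diet group of shEGR2_38.9, had a value of 0.76 and so lay apart, and it enters the spread that all comparisons share.

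Markers of the labelled neural fraction were partly measurable. Of 13 markers of Schwann cell identity on the array, 9 lay above the dim level of 6.27 on the PA-rich diet and 7 on the control diet, among them Sox10, the master factor of Schwann cells, at 7.57 ± 0.05 on the PA-rich diet and 7.56 ± 0.07 on the control diet (SD, n = 3 each). S100b, Foxd3, Scn7a and Fabp7 lay below that level on both diets. Of 19 neuron markers 9 were above it on either diet, and the neurofilament genes Nefl, Nefm and Nefh and the synaptic gene Snap25 were below it. All 19 keratinocyte markers, 14 of 15 endothelial markers and all 4 erythroid markers were above it on both diets. On the PA-rich diet the tested keratinocyte markers had array means of 11.19 to 11.22. Those of Schwann identity were 7.83 to 7.89, and those of neuron markers 7.45 to 7.50. Erythroid markers had array means of 9.09 to 9.15, with the haemoglobin gene Hba-a1 at 13.23. What share of the RNA was neural was not tested. In bulk RNA, fewer cells of a type and less RNA per cell cannot be told apart.

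With shGAL, 230 of 11844 genes passed an adjusted p of 0.05, which is 1.94% of those tested. On the PA-rich diet 158 were higher (1.33%) and 72 were lower (0.608%). Rises were between 0.25 and 1.29 with a median of 0.47, and falls between 0.27 and 0.90 with a median of 0.42. Of these, 3 genes changed by more than 1, the cytokine gene Il33, the cytochrome P450 gene Cyp2f2 and the glutamate transporter gene Slc1a1, and all 3 were higher. The split of higher and lower calls became 118 and 96 after renewed quantile normalization and 115 and 95 after a median shift of each array. The count itself depended on single arrays, with 59 calls without control-diet replicate 2, 75 without PA-rich replicate 3, 121 without PA-rich replicate 2, 442 without control-diet replicate 3 and 528 without the shEGR2_38.9 array that stood apart. Of all genes, 21.1% had PA-rich and control-diet arrays that did not overlap, 11% with the PA-rich arrays higher and 10.2% with them lower.

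**Figure D1:**
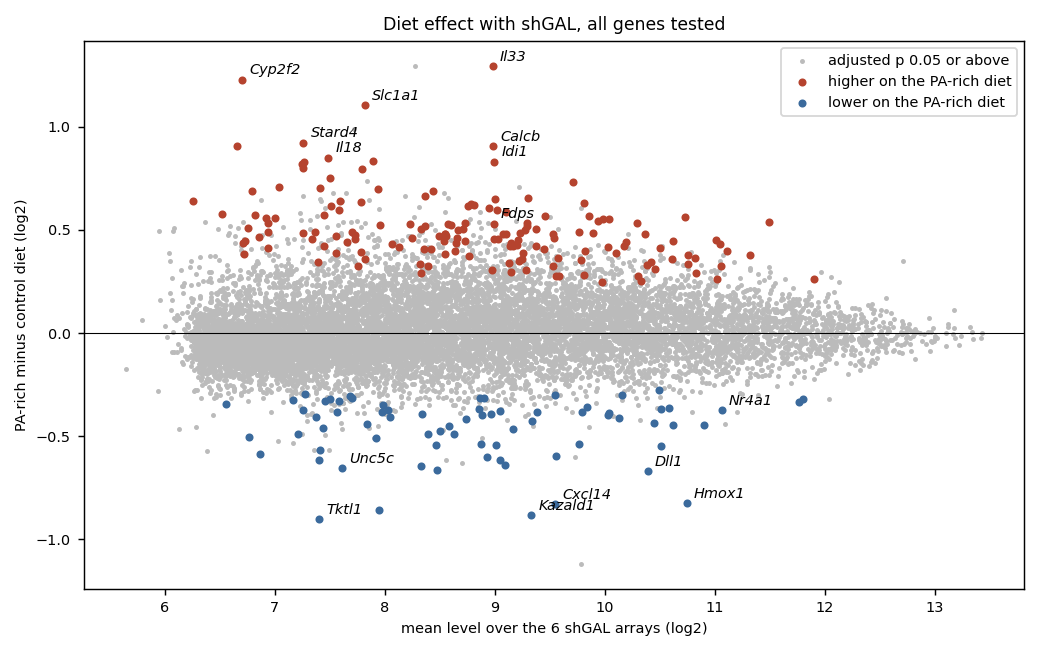
Log2 difference between the PA-rich and the control diet against the mean log2 level over the 6 shGAL arrays, for each of 11844 genes (grey: adjusted p of 0.05 or above; red: 158 genes higher on the PA-rich diet; blue: 72 genes lower). Il33 is the highest of the red genes at 1.29, and Hmox1 among the falls at -0.82 with a high level.

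The largest rise past the threshold was that of Il33, which encodes an alarmin of the interleukin-1 family that barrier and stromal cells hold in the nucleus and release on damage. Its levels were 9.35, 9.66 and 9.88 on the PA-rich diet, against 8.51, 7.96 and 8.53 on the control diet. Every PA-rich array was above every control-diet array, and Il33 was 2.45-fold higher (log2 difference 1.29, SE 0.16, adjusted p = 0.000119). Il18, a second cytokine of the same family that is activated by inflammasomes, was at 7.70, 8.06 and 7.97 on the PA-rich diet, against 7.04, 7.23 and 6.91 on the control diet. It rose by 0.85 (SE 0.15, adjusted p = 0.00354), again without overlap.

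Calcb encodes the beta form of calcitonin gene-related peptide, a vasodilator peptide of sensory neurons. It was at 9.38, 9.42 and 9.50 on the PA-rich diet, against 8.47, 8.48 and 8.65 on the control diet. The gap of 0.91 (SE 0.13, adjusted p = 0.000781) was several times the spread within either diet. Of the 13 tested genes for neuropeptides and their receptors Calcb was the only one to pass, and the list median was 0.00. Gfra2, the receptor that binds neurturin, rose by 0.71 (SE 0.16, adjusted p = 0.0208). Its other probe sets, at a similar level, gave 0.27 and 0.09, so the size rests on 1 of 3 probe sets. It was the 1 of 13 neurotrophic factor and receptor genes to pass, and its arrays overlapped between the diets, with 6.98 in PA-rich replicate 1 against 7.06 in control-diet replicate 3. Its call ended without control-diet replicate 1 or 2 (adjusted p = 0.0888 and 0.144) and without PA-rich replicate 2 or 3 (adjusted p = 0.106 and 0.147).

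Ifih1, the cytosolic sensor of double-stranded RNA known as MDA5, was at 9.12, 9.11 and 9.05 on the PA-rich diet, against 8.56, 8.33 and 8.52 on the control diet, and rose by 0.63 (SE 0.10, adjusted p = 0.00197). The other 17 of 18 interferon response genes did not pass, and the median of the list was -0.07, beside -0.01 over all genes. Ccrl2, an atypical receptor that binds chemerin, rose by 0.82 (SE 0.18, adjusted p = 0.0162), a call that ended without control-diet replicate 2 (adjusted p = 0.142) and without PA-rich replicate 1 or 3 (adjusted p = 0.0661 and 0.14). Cxcl14, a chemokine that epithelia make at rest, fell. It was at 9.20, 9.20 and 9.003 on the PA-rich diet, against 10.02, 10.22 and 9.66 on the control diet, with a fall of 0.83 (SE 0.14, adjusted p = 0.00308). Another probe set of Cxcl14 gave -0.43. Of the 22 inflammatory cytokine and chemokine genes tested, a list that does not hold Il18 or Ccrl2, Il33 rose, Cxcl14 fell and 20 did not pass. The list median was 0.12, and 8 of the 22 had PA-rich arrays above all control-diet arrays, against 11% of all genes.

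**Figure D2:**
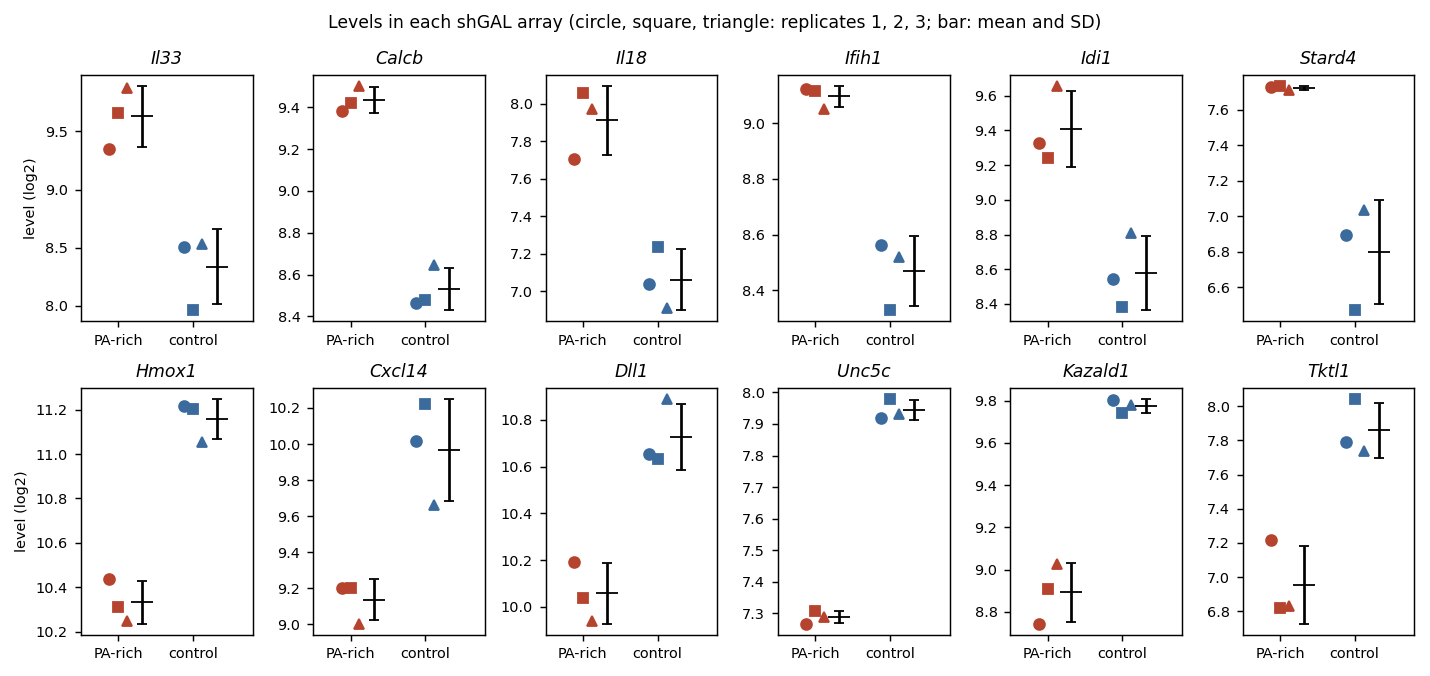
Log2 level in each shGAL array for 12 genes, PA-rich diet left and control diet right of each panel (circle, square and triangle: replicates 1, 2 and 3; black bar: mean and SD of 3 arrays). In each panel the 2 diets do not overlap; the upper row shows rises, such as Calcb at 9.38 to 9.50 against 8.47 to 8.65, and the lower row falls. Each panel has its own level axis, which does not start at 0.

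Cholesterol synthesis genes were higher on the PA-rich diet as a group. Of 16 tested genes of cholesterol synthesis, uptake and efflux, 9 rose and 0 fell, beside 1.33% and 0.608% of all genes. The median difference was 0.43, beside -0.01 over all genes, and it was 0.32, 0.46 and 0.48 in replicate numbers 1, 2 and 3. In 12 of the 16 every PA-rich array was above every control-diet array, against 11% of all genes. The mean level of the 16 genes was 8.92, 8.89 and 8.97 in the PA-rich arrays and 8.56, 8.52 and 8.60 in the control-diet arrays. This list is not independent evidence, since it was chosen with earlier results of these arrays known.

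The enzymes are described in the order of the pathway. Mvd, the decarboxylase that makes isopentenyl pyrophosphate, rose by 0.41 (SE 0.09, adjusted p = 0.0161), and another probe set gave 0.26. Idi1, the isomerase that follows it, had the largest change among the enzymes. Its levels were 9.33, 9.24 and 9.66 on the PA-rich diet, against 8.54, 8.39 and 8.81 on the control diet (difference 0.83, SE 0.13, adjusted p = 0.000989). Fdps, which joins isoprene units into farnesyl pyrophosphate, was at 9.26, 9.32 and 9.19 on the PA-rich diet, against 8.67, 8.79 and 8.72 on the control diet, and rose by 0.53 (SE 0.07, adjusted p = 0.000492). Sqle, the squalene epoxidase, was at 9.74, 9.70 and 9.79 on the PA-rich diet, against 9.23, 8.98 and 9.32 on the control diet, and rose by 0.57 (SE 0.09, adjusted p = 0.00252). In each of these 4 genes the diets did not overlap.

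Enzymes that turn lanosterol into cholesterol followed. Cyp51, the lanosterol demethylase, was at 10.21, 10.26 and 10.18 on the PA-rich diet, against 9.76, 9.53 and 9.72 on the control diet, and rose by 0.54 (SE 0.08, adjusted p = 0.000627). A probe set of Cyp51 with a lower level and a larger variance gave -0.04 (adjusted p = 0.891), so the direction depends on the probe set, and another that lay below the dim level gave 0.19. With the replicate block on only the 6 shGAL arrays, adjusted p for Cyp51 was 0.0535. Msmo1, a sterol methyl oxidase, rose by 0.45 (SE 0.12, adjusted p = 0.0432) and likewise had another probe set of opposite sign, at -0.11. Sc5d, a sterol desaturase, rose by 0.47 (SE 0.11, adjusted p = 0.0208). Its other probe sets gave 0.35 and 0.22, and the call ended with the dimmer of these, the one with the largest variance (adjusted p = 0.524). Stard4, which carries cholesterol between membranes, was at 7.73, 7.73 and 7.71 on the PA-rich diet, against 6.89, 6.47 and 7.04 on the control diet, and rose by 0.92 (SE 0.17, adjusted p = 0.00408). With PLKO and both EGR2 hairpins its means were 7.40 to 7.85 over the 2 diets, so the control-diet arrays of shGAL were the low ones. Insig2, which holds SREBP proteins in the endoplasmic reticulum, rose by 0.49 (SE 0.11, adjusted p = 0.0157), and its other probe sets above the dim level gave 0.30 and 0.31.

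The other 7 genes of the list did not pass. Differences were 0.30 for Fdft1, the squalene synthase, 0.33 for Lss, the lanosterol synthase, 0.27 for Insig1, 0.15 for Dhcr7, 0.04 for Mvk and 0.01 for Srebf2, which encodes SREBP2 itself. Abcg1, a transporter that exports cholesterol, had a difference of -0.44 and was the only member with a negative value. Among the 9 calls, those of Idi1, Fdps, Sqle and Stard4 stayed in every alternative run. Without control-diet replicate 2, adjusted p was 0.266 for Msmo1, 0.142 for Insig2 and 0.133 for Sc5d. Without PA-rich replicate 3 it was 0.0957 for Mvd, 0.221 for Msmo1, 0.139 for Insig2 and 0.0862 for Sc5d, and without PA-rich replicate 2 it was 0.0928 for Mvd, 0.0898 for Msmo1 and 0.0734 for Sc5d. The call of Msmo1 also ended without replicate 1 of either diet (adjusted p = 0.0614 PA-rich and 0.0546 control), and that of Mvd without control-diet replicate 3 (adjusted p = 0.0507).

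**Figure D3:**
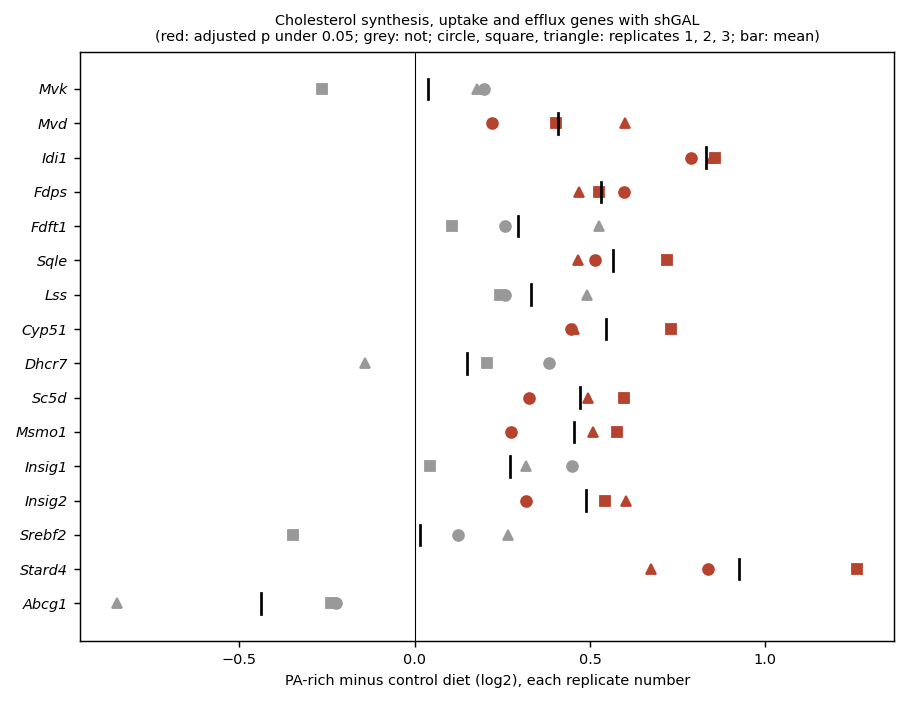
PA-rich minus control log2 difference with shGAL for 16 genes of cholesterol synthesis, uptake and efflux, with 1 point for each replicate number (circle, square and triangle: 1, 2 and 3) and a bar at the mean (red: adjusted p under 0.05; grey: not). The 9 red genes have all 3 replicate numbers above 0, from 0.22 in Mvd to 1.26 in Stard4, while Abcg1 lies below 0.

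The 250 bases before the start of 3 of the genes that rose are printed, from RefSeq on GRCm38.p6, to show the motifs that these promoters share. Mvd and Idi1 act in the isoprene part of the pathway and Cyp51 in the sterol part. The Idi1 stretch lies at chr13:8885356-8885605 on the plus strand, that of Mvd at chr8:122443423-122443672 on the minus strand and that of Cyp51 at chr5:4104698-4104947 on the minus strand. Capitals mark the CCAAT box (CCAAT, or ATTGG on the other strand) and the GC box (GGGCGG, or CCGCCC), motifs that bind NF-Y and Sp1.
Idi1: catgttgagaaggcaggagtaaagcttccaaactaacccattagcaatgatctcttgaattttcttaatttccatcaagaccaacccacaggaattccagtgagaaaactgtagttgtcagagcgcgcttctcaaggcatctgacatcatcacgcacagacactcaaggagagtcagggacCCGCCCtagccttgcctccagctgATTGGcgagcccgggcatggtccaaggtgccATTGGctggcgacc
Mvd: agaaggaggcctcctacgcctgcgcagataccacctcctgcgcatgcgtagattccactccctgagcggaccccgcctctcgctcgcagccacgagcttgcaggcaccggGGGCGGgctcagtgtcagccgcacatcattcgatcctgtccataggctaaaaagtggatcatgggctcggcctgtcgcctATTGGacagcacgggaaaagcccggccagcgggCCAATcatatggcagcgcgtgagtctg
Cyp51: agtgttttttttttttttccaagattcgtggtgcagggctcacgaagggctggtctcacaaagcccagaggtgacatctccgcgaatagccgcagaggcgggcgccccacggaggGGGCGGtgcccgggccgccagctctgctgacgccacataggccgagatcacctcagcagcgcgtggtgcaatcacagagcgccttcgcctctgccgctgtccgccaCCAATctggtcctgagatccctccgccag

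Of the 9 genes that rose, 6 had windows that were searched, 8 windows of 300 bases in all, 3 of them of Insig2, from 250 before to 50 after the start and on both strands. For genes of the list, a rule left out windows on chromosome 18, where Stard4 lies. That rule was not applied to the mouse windows used for comparison. The CCAAT box was in 6 of the 8, against 37.4% of 32851 mouse windows, and the GC box in 7 of the 8, against 35.7%. The 7 windows of 5 genes of the list that did not pass held them about as often, the CCAAT box in 5 and the GC box in 6. The E-box CACGTG was in 1 of the 8 (7.15% of all windows), the HRE core ACGTG, which overlaps it, in 1 (19.6%), the AP-1 site TGANTCA in 1 (7.81%) and the TATA box TATAAA in 0 (13.6%). One spelling of the sterol regulatory element, TCACNCCAC, was in 0 of the 8 and in 1.24% of all windows, which says only that these letters are not in these windows. The matches describe the sequences and are not measured binding.

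Lists of fatty acid genes had medians near 0, and their calls were few, beside 1.94% of all genes called. At that share, lists of this size would hold few calls in any case. Of 17 genes of fatty acid synthesis, elongation and desaturation only Elovl6, an elongase of saturated fatty acids that uses palmitate as its substrate, passed, with a rise of 0.46 (SE 0.12, adjusted p = 0.0467) and a list median of 0.02. Its other probe sets gave 0.06 and 0.34. The call ended without control-diet replicate 2 (adjusted p = 0.318) and without PA-rich replicate 1, 2 or 3 (adjusted p = 0.0998, 0.113 and 0.16). Of 20 genes of fatty acid uptake, oxidation and PPAR targets, which respond to fatty acids in many tissues, 0 passed and the median was -0.03. Whether these lists differ from the cholesterol list was not tested.

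The smallest adjusted p of any fall belonged to Hmox1, the stress-induced haem oxygenase. Its levels were 10.44, 10.31 and 10.25 on the PA-rich diet, against 11.22, 11.20 and 11.05 on the control diet. The diets were well apart, and the difference was -0.82 (SE 0.09, adjusted p = 4.89e-05). Gclc, the catalytic subunit for glutathione synthesis and like Hmox1 a target of the antioxidant factor Nrf2, fell by 0.37 (SE 0.07, adjusted p = 0.00593). The call of Gclc was lost on the 6 shGAL arrays alone, at adjusted p = 0.111 without the replicate block and 0.0988 with it. The other 11 of 13 haem oxygenase and Nrf2 target genes did not pass. The list median was -0.05, and 11 of its 13 members had a negative difference, beside 6185 of all 11844 genes. Of all genes 0.608% were called lower. One-sided signs were not particular to this list, since 17 of 18 ribosomal protein genes were negative too.

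Calls among developmental signalling genes were few, and all but that of Fst were falls, beside 1.33% higher and 0.608% lower of all genes. Of 12 Notch genes 0 rose and 2 fell, of 20 TGF-beta and BMP genes 1 rose and 2 fell, and of 17 Wnt genes 0 rose and 1 fell. Dll1, a ligand of Notch receptors, was at 10.19, 10.04 and 9.94 on the PA-rich diet, against 10.66, 10.63 and 10.89 on the control diet, and fell by 0.67 (SE 0.09, adjusted p = 0.000357), or 0.0535 with the replicate block on the 6 shGAL arrays. Lfng, a glycosyltransferase that tunes how Notch receptors answer their ligands, fell by 0.59 (SE 0.11, adjusted p = 0.00714), and another probe set gave -0.39. The other 10 of 12 Notch genes did not pass, and the list median was -0.06. Among 20 genes of TGF-beta and BMP signalling, the ligand gene Bmp2 fell by 0.36 (SE 0.09, adjusted p = 0.0348) and its feedback inhibitor Smad6 by 0.50 (SE 0.12, adjusted p = 0.0248). Fst, a secreted protein that binds activins and BMPs, was at 10.27, 10.36 and 10.32 on the PA-rich diet, against 9.66, 9.65 and 9.98 on the control diet, and rose by 0.55 (SE 0.09, adjusted p = 0.00209). The Fst call was lost on the 6 shGAL arrays alone, at adjusted p = 0.0604 without the replicate block and 0.0557 with it.

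Of 17 Wnt genes only Axin2, a feedback target of the pathway, passed, with a fall of 0.41 (SE 0.10, adjusted p = 0.0375). Of 18 hypoxia and glycolysis genes only Vegfa, the vascular growth factor, passed, with a fall of 0.47 (SE 0.11, adjusted p = 0.0232). The other Vegfa probe set, also above the dim level, gave -0.08 (adjusted p = 0.701), so the fall rests on 1 of 2 probe sets. Without control-diet replicate 2, adjusted p was 0.06 for Lfng, 0.159 for Bmp2, 0.156 for Smad6, 0.263 for Axin2 and 0.184 for Vegfa. Without PA-rich replicate 3 it was 0.0584 for Lfng, 0.123 for Smad6, 0.206 for Axin2 and 0.109 for Vegfa. Without PA-rich replicate 1 it was 0.0653 for Bmp2, 0.064 for Smad6, 0.077 for Axin2 and 0.0722 for Vegfa. Without PA-rich replicate 2 it was 0.174 for Bmp2, 0.0575 for Smad6 and 0.053 for Axin2, and without control-diet replicate 1 it was 0.115 for Bmp2 and 0.0546 for Axin2.

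Unc5c, Sncg and Camk1g, which are on none of the gene lists used, were among the 15 largest falls. Unc5c, a netrin receptor that mediates repulsion of axons, was at 7.27, 7.31 and 7.29 on the PA-rich diet, against 7.92, 7.98 and 7.93 on the control diet. It fell by 0.66 (SE 0.08, adjusted p = 0.000119), about the same in each replicate number. Sncg, a synuclein of peripheral neurons, was at 8.86, 8.87 and 8.58 on the PA-rich diet, against 9.42, 9.63 and 9.19 on the control diet, and fell by 0.64 (SE 0.11, adjusted p = 0.00354), or with adjusted p = 0.0708 on the 6 shGAL arrays alone. Camk1g, a calcium-dependent kinase of neurons, fell by 0.64 (SE 0.12, adjusted p = 0.00545), a call that ended without control-diet replicate 2 (adjusted p = 0.0561) and with the replicate block on the 6 shGAL arrays (adjusted p = 0.055).

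Of the 24 axon guidance genes on the list, which does not hold Unc5c, only Nrp2 passed. It is a receptor for class 3 semaphorins, and it was at 10.68, 10.68 and 10.67 on the PA-rich diet, against 11.12, 11.12 and 11.13 on the control diet. The fall of 0.45 (SE 0.10, adjusted p = 0.026) was far above the spread within either diet, but the spread is shared over all groups of the model, and the call ended when any 1 of 5 shGAL arrays was left out. The adjusted p was then 0.0661, 0.069 and 0.109 without PA-rich replicates 1, 2 and 3, and 0.0595 and 0.11 without control-diet replicates 1 and 2. Its other probe set gave -0.08. Slc1a1, a glutamate transporter of neurons and epithelia, moved the other way. It was at 8.20, 8.52 and 8.41 on the PA-rich diet, against 7.79, 6.70 and 7.32 on the control diet, and rose by 1.10 (SE 0.23, adjusted p = 0.0117). Control-diet replicate 2 was the lowest, and without it adjusted p was 0.115. It was 0.0542 and 0.0597 without PA-rich replicates 2 and 3. On the 6 shGAL arrays alone it was 0.0849 without the replicate block and 0.0835 with it. Another probe set of Slc1a1, below the dim level, gave 0.14. With PLKO and both EGR2 hairpins the means of Slc1a1 lay below the dim level on both diets, at 5.48 to 6.12. The gene was thus tested only because of its level with shGAL.

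Marker lists of neural cells gave 0 or 1 calls, and with 1.94% of all genes called, lists of this size would hold few calls in any case. None of 9 tested neuron markers passed, and all 9 had a negative difference, with a median of -0.13, and 4 had PA-rich arrays below all control-diet arrays, against 10.2% of all genes. The mean level of the 9 was 7.48, 7.50 and 7.45 on the PA-rich diet and 7.60, 7.63 and 7.54 on the control diet. The 6 tested synapse markers were all negative too, with a median of -0.11 and 0 calls. Lists of other kinds had the same one-sided sign without a call, with all 4 lymphocyte, all 3 salivary and mucous gland and both mast cell markers and 17 of 18 ribosomal protein genes negative. Schwann identity had 0 calls among 9 genes (median -0.06), myelin 0 among 8 (median -0.12) and the repair Schwann cell list 0 among 9 (median -0.04). Among 3 tested satellite glia and astrocyte genes, Aldh1l1, an enzyme of folate metabolism used as an astrocyte marker, rose by 0.58 (SE 0.13, adjusted p = 0.0162). Its level on the control diet was 6.23, below the dim level, and the call ended without control-diet replicate 2 or 3 (adjusted p = 0.0618 and 0.0526) or PA-rich replicate 3 (adjusted p = 0.103).

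No gene of the galanin system passed. Mouse Gal was at 7.15, 7.10 and 6.99 on the PA-rich diet, against 7.14, 7.27 and 6.87 on the control diet, with a difference of -0.01 (SE 0.10, adjusted p = 0.974). The diets overlapped fully. Galr3 had a difference of -0.09 (SE 0.10, adjusted p = 0.71), and Galr1 and Galr2 were below the dim level, at 5.84 and 5.81 on the PA-rich diet and 5.91 and 5.86 on the control diet. The hairpin acts on the human gene in the cancer cells, so these mouse values do not check the silencing. Egr2, the Schwann cell factor that the other hairpins target in the cancer cells, was at 10.89 ± 0.15 on the PA-rich diet and 11.04 ± 0.06 on the control diet (SD, n = 3 each), and its difference of -0.15 did not pass (adjusted p = 0.532).

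Kazald1, Ly6k and Dlx3 were among the largest falls. Kazald1, a secreted protein of the IGF-binding family, was at 8.75, 8.91 and 9.02 on the PA-rich diet, against 9.80, 9.74 and 9.78 on the control diet, and fell by 0.88 (SE 0.11, adjusted p = 0.000309). Ly6k, a surface protein of the Ly6 family, was at 7.62, 7.48 and 7.46 on the PA-rich diet, against 8.42, 8.53 and 8.17 on the control diet, and fell by 0.86 (SE 0.13, adjusted p = 0.000989). Dlx3, a homeobox factor of epidermis, hair and teeth, was at 8.27, 8.20 and 7.97 on the PA-rich diet, against 8.77, 8.94 and 8.72 on the control diet, and fell by 0.66 (SE 0.10, adjusted p = 0.00123). None of the 3 genes had overlapping diets. Another probe set of Dlx3 gave -0.28.

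Tktl1, a relative of transketolase, was at 7.22, 6.82 and 6.83 on the PA-rich diet, against 7.79, 8.04 and 7.74 on the control diet. It had the largest fall past the threshold, at 0.90 on the log2 scale (SE 0.15, adjusted p = 0.00235), and another probe set above the dim level gave -0.55. Scel, a precursor protein of the cornified envelope, rose by 0.91 (SE 0.18, adjusted p = 0.0109), with 6.88, 7.03 and 7.43 on the PA-rich diet, against 6.34, 5.76 and 6.52 on the control diet. Cyp2f2, best known from airway and liver, was at 7.42, 6.86 and 7.67 on the PA-rich diet, against 5.78, 6.12 and 6.37 on the control diet, a rise of 1.23 (SE 0.29, adjusted p = 0.0297). Control-diet means of Scel and Cyp2f2 lay below the dim level, at 6.21 and 6.09, so their folds are not exact. Both calls ended without control-diet replicate 2 (adjusted p = 0.11 for Scel and 0.117 for Cyp2f2) and without PA-rich replicate 3 (0.102 and 0.18). That of Cyp2f2 also ended without replicate 1 of the PA-rich diet (adjusted p = 0.084) or of the control diet (adjusted p = 0.104). Means of Cyp2f2 with the other hairpins were 7.03 to 7.59, except for 6.09 with shEGR2_38.9 on the control diet.

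Of 19 keratinocyte markers only Trp63, the factor of basal epidermal cells, passed, with a fall of 0.32 (SE 0.08, adjusted p = 0.0314). The mean level of the keratinocyte list was 11.19 to 11.22 on the PA-rich diet and 11.09 to 11.35 on the control diet, so the diets overlapped. Its summed level, on the log2 scale, was 16.19 to 16.24 on the PA-rich diet and 16.14 to 16.26 on the control diet. Other probe sets of Trp63 above the dim level gave -0.105 and -0.39. The part of keratinocytes in the changes described was not tested. The Trp63 call ended without control-diet replicate 2 (adjusted p = 0.241) and without PA-rich replicate 1, 2 or 3 (adjusted p = 0.0508, 0.0531 and 0.193). Of 8 skeletal muscle markers Ryr1, the calcium release channel of muscle, fell by 0.37 (SE 0.09, adjusted p = 0.0326), a call that ended without any 1 of 5 arrays (adjusted p = 0.103 and 0.16 without PA-rich replicates 2 and 3, and 0.0648, 0.113 and 0.0526 without control-diet replicates 1, 2 and 3).

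Etv5, an ETS factor, and Spry2, an inhibitor of receptor tyrosine kinases, are both induced by ERK signalling, and rose by 0.75 (SE 0.15, adjusted p = 0.0109) and 0.73 (SE 0.17, adjusted p = 0.0231). Spry2 was at 10.01, 9.92 and 10.31 on the PA-rich diet, against 9.40, 9.23 and 9.42 on the control diet. Mdfic, a regulator of transcription, rose by 0.83 (SE 0.15, adjusted p = 0.00354), or with adjusted p = 0.0589 on the 6 shGAL arrays alone, and Hacd1, an enzyme of very long chain fatty acid synthesis, by 0.80 (SE 0.16, adjusted p = 0.0109). Junb and Nr4a1, immediate early genes that many stimuli induce within minutes, fell by 0.60 (SE 0.14, adjusted p = 0.0337) and 0.38 (SE 0.07, adjusted p = 0.00786). They were 2 of 21 immediate early genes, of which 0 rose, with a median of -0.06, beside 1.33% higher and 0.608% lower of all genes. Of the 21, 7 had PA-rich arrays below all control-diet arrays, against 10.2% of all genes, and 1 had them above, against 11%.

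Of 25 cell cycle genes 2 rose, Rrm2, which makes deoxynucleotides, by 0.46 (SE 0.08, adjusted p = 0.00354) and Cdt1, which licenses replication origins, by 0.42 (SE 0.09, adjusted p = 0.0135). The Rrm2 call was lost on the 6 shGAL arrays alone, at adjusted p = 0.0876 without the replicate block and 0.0716 with it. The list median was 0.17, and 22 of the 25 were positive, beside 5657 of all 11844 genes. Of all genes 1.33% were called higher. Among the 25, 14 had PA-rich arrays above all control-diet arrays, against 11% of all genes. Of 16 circadian clock genes the repressor gene Cry1 rose by 0.48 (SE 0.10, adjusted p = 0.0105) and Clock, part of the activator, by 0.31 (SE 0.08, adjusted p = 0.0467). The median of this list was 0.05 and 8 of the 16 were positive, and 1.33% of all genes were called higher. The other probe sets of Clock, all above the dim level, gave 0.02, -0.29 and 0.43, so its direction depends on the probe set. One of the other probe sets of Cdt1 gave 0.43, and one that lay below the dim level gave -0.02. Without control-diet replicate 2, adjusted p was 0.108 for Etv5, 0.142 for Spry2, 0.0806 for Hacd1, 0.252 for Junb, 0.0692 for Nr4a1, 0.107 for Cdt1, 0.0953 for Cry1 and 0.241 for Clock. Without PA-rich replicate 3 it was 0.162 for Spry2, 0.0647 for Hacd1, 0.238 for Junb, 0.103 for Cdt1, 0.0776 for Cry1 and 0.245 for Clock. Without replicate 1 of the PA-rich or the control diet it was 0.0644 and 0.0588 for Junb and 0.0959 and 0.106 for Clock. Without PA-rich replicate 2 it was 0.0629 for Cdt1 and 0.0532 for Clock.

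Vascular and connective tissue lists gave no calls. With 1.94% of all genes called, lists of such sizes would hold few calls in any case. The endothelial, matrix, lymphatic, and pericyte and smooth muscle lists had median differences that changed sign between replicate numbers, and the fibroblast list, with 0.36, 0.09 and 0.06 in replicate numbers 1, 2 and 3, did not. Endothelial markers had 0 calls of 15 and median differences of 0.44, -0.09 and -0.35 in replicate numbers 1, 2 and 3. Matrix and basement membrane genes had 0 calls of 19 and medians of 0.32, 0.15 and -0.17. The mean level of 7 lymphatic endothelial markers was 9.26, 8.90 and 8.91 on the PA-rich diet, against 8.81, 8.50 and 9.07 on the control diet, and 0 of them passed. Macrophage (7 tested), neutrophil (3), lymphocyte (4), fibroblast (6) and pericyte and smooth muscle (9) markers gave 0 calls.

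**Figure D4:**
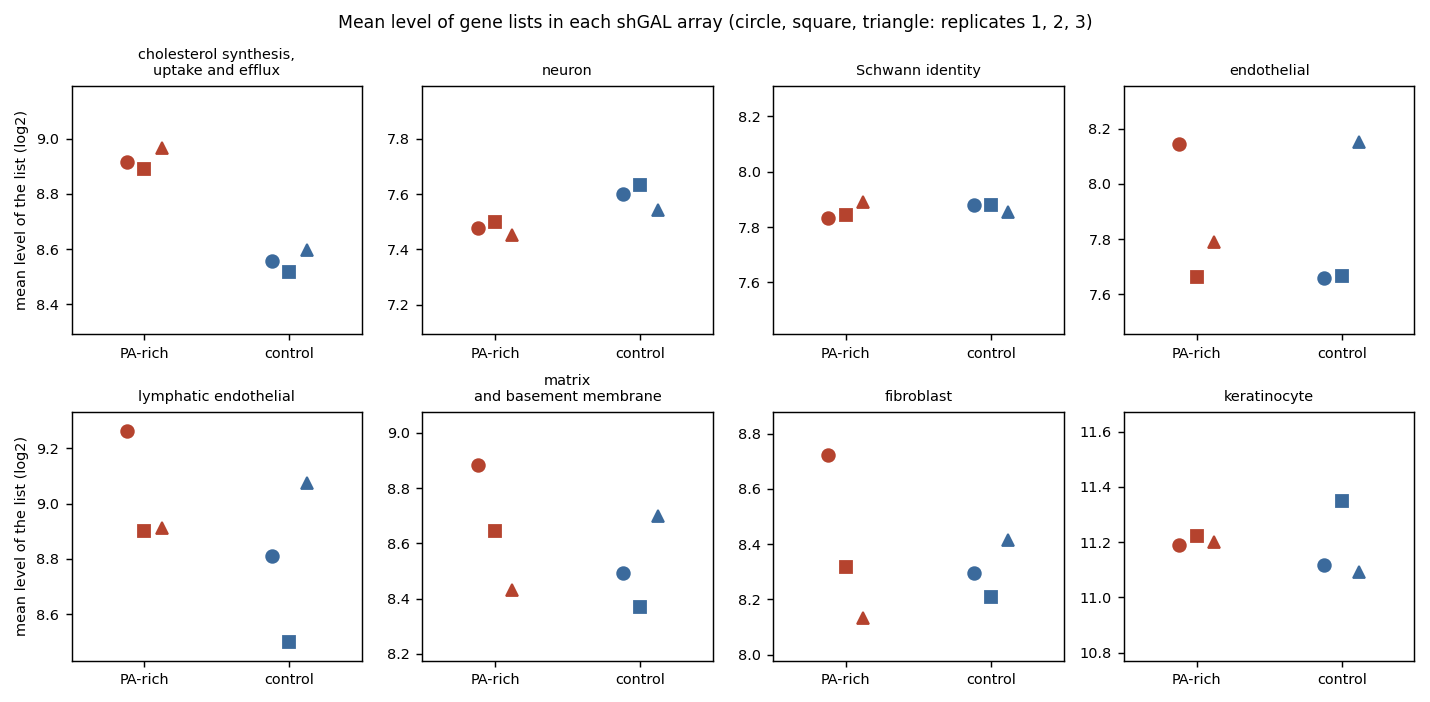
Mean log2 level of 8 gene lists in each shGAL array, PA-rich diet left and control diet right of each panel (circle, square and triangle: replicates 1, 2 and 3). All panels span 0.9 log2 units. The cholesterol list separates the diets, at 8.89 to 8.97 against 8.52 to 8.60, the neuron list does so by less, and the endothelial list runs from 7.66 to 8.14 against 7.66 to 8.15.

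The diet effect with shGAL was set beside that with the other hairpins, which share no array with it. With shEGR2_40.9 1060 genes passed (8.95%), 442 higher (3.73%) and 618 lower (5.22%). With shEGR2_38.9 2623 passed (22.1%), 1640 higher (13.8%) and 983 lower (8.3%). With PLKO 140 passed (1.18%), 44 higher (0.371%) and 96 lower (0.811%). Of the 230 genes with shGAL, 9 passed in the same direction with PLKO, which is 3.91% of the shGAL genes and 6.43% of the PLKO genes, and 5 passed in the opposite direction. With shEGR2_40.9 23 passed in the same and 27 in the opposite direction, and with shEGR2_38.9 61 and 51. Across all genes, which are not independent, the correlation of the shGAL differences was -0.18 with those of shEGR2_40.9, -0.04 with those of shEGR2_38.9 and -0.07 with those of PLKO.

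The difference between the diet effects of shGAL and PLKO was tested directly, and 158 genes passed (1.33%), 120 with the higher effect in shGAL (1.01%) and 38 with the lower (0.321%). Of the 230 genes changed with shGAL 65 were among them, 44 higher and 21 lower, and 165 were not. Il33 differed by 1.73 (SE 0.22, adjusted p = 0.000183), with an effect of 1.29 with shGAL and -0.43 with PLKO. For Ifih1 the effects were 0.63 with shGAL and -0.90 with PLKO, for Calcb 0.91 and -0.15, for Etv5 0.75 and -0.53, and for Hmox1 -0.82 and 0.05, and each of these differences passed. Hmox1 also fell with the EGR2 hairpins, by 0.31 with shEGR2_40.9 (adjusted p = 0.0297) and by 1.56 with shEGR2_38.9 (adjusted p = 1.99e-10), and shGAL differed from their mean by 0.11 (adjusted p = 0.549). The cholesterol list had a median of 0.43 with shGAL, against -0.05 with PLKO, and 3 of its 16 members differed, Idi1 (0.83 against -0.34), Fdps (0.53 against -0.33) and Cyp51 (0.54 against -0.21). Tchh, a structural protein of hair, had the largest difference, at 2.46 (adjusted p = 0.00113), with an effect of 0.54 with shGAL that did not pass and of -1.92 with PLKO. Lcn2, an iron-binding acute phase protein, and Acod1, the enzyme that makes itaconate, differed by 1.84 and 1.98, and Dsc1, a desmosomal cadherin, by 1.53; none of the 3 passed with shGAL alone. Cxcl14 showed no such gap, at -0.83 with shGAL and -0.84 with PLKO.

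Against the mean diet effect of both EGR2 hairpins, 1416 genes differed (12%), 791 higher (6.68%) and 625 lower (5.28%) with shGAL, and 145 of the 230 shGAL genes were among them. On the first principal component, the axis of largest spread between arrays, the control-diet arrays of the EGR2 hairpins lay at -31.4 to -12.5. All other arrays, the PA-rich arrays of the EGR2 hairpins included, lay at 2.79 to 14.5. The part of this gap in the differences was not tested. Dll1 had an effect of -0.67 with shGAL, against -0.16 with shEGR2_40.9 and 0.42 with shEGR2_38.9, and Unc5c one of -0.66, against -0.03 and 0.30. Kazald1 was -0.88 with shGAL, against 0.13 and 0.49. Among the largest differences were Gab2, a signalling adaptor, at 2.52, and Angpt2, an angiopoietin of vessel remodelling, at 2.42. Neither passed with shGAL alone, and their effects were -1.56 and -1.91 with shEGR2_40.9 and -2.17 and -2.15 with shEGR2_38.9. Of 15 endothelial markers 13 differed, with no call in shGAL. Cholesterol genes passed with the EGR2 hairpins too. With shEGR2_40.9 5 of the 16 rose and 1 fell (median 0.18), and with shEGR2_38.9 10 rose and 2 fell (median 0.39), beside 3.73% and 13.8% of all genes called higher. Fdps had effects of 0.53 with shGAL, 0.63 with shEGR2_40.9 and 0.53 with shEGR2_38.9, and its difference from the mean of both was -0.05 (adjusted p = 0.75). Il18 was 0.85 with shGAL, 0.50 with shEGR2_40.9 and 0.90 with shEGR2_38.9, against 0.19 with PLKO.

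**Figure D5:**
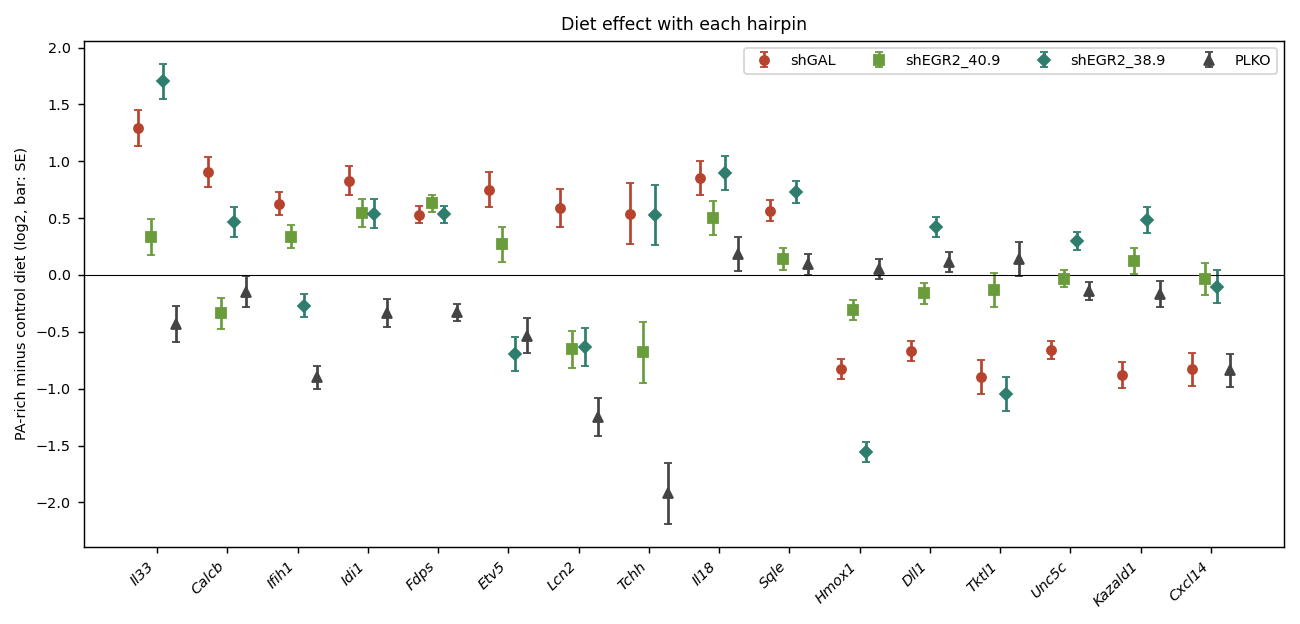
Log2 difference between the PA-rich and the control diet with each hairpin for 16 genes (red circle: shGAL; green square: shEGR2_40.9; teal diamond: shEGR2_38.9; black triangle: PLKO; bar: SE of the model, 3 arrays a group). Il33 is at 1.29 with shGAL and 1.70 with shEGR2_38.9, against -0.43 with PLKO, while Dll1 and Kazald1 have their lowest values with shGAL.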

How the data were processed

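Mouse RNA of the neural fraction had been amplified and hybridised to Affymetrix arrays. The deposited values are on a log2 scale. The authors made them with RMA in affy (version not stated), per the submitters' processing notes. Of 45141 probe sets, 28898 had 1 gene symbol, 551 several and 15692 none in the supplied annotation, and 99.28% of the first could be linked to the supplied table of genes through their Entrez number. The probe set with the highest mean stood for each of 17097 genes, 7180 of which had several. Genes with a mean under the 40th percentile of all probe sets (6.27) were left out as dim, which kept 11844. The tumours were human, and binding of human transcripts to mouse probes was not tested.

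The test was limma (3.58.1, run in R 4.3.3) with 1 model of 8 group means over 24 arrays (16 residual degrees of freedom), with two-sided moderated tests adjusted by Benjamini and Hochberg over 11844 genes within each comparison and a threshold of 0.05. The shared spread assumes that the groups vary alike. With shGAL, the labels put both arrays of a replicate number in 1 scan batch, so the numbers pair the arrays (correlations of same-number deviations 0.03, 0.24 and 0.21), and the batch was tried as a block. No pair of arrays held identical values. Array values carry no depth of counting, and precision is set by the number of arrays. The procedure was run on simulated data with independent normal noise and 1 spread per gene for all groups. It recovered 81 of 100 changes of 0.5 and 100 of 100 changes of 1, with 5 false calls among 186. The simulation held no array that stood apart, no pairing and no correlation between genes, so it does not cover their part in the counts.

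The named genes were the 15 largest rises and falls past the threshold with the same sign in each replicate number, list members past it, Egr2, Gal and its receptors, and the 6 largest differences between hairpins in each direction, and the text gives examples from them. The sterol regulatory element was added to the motif search after the values were seen. The genes, the 50 lists and the rules were chosen with earlier results of these data known. The alternatives are in the closing section.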

Additional observations from a re-analysis of the deposited data

Results flagged for a closer look

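Every result here was set apart because the test of the difference between diet effects passed with limma. Differences are log2 values, shGAL minus PLKO or shGAL minus the mean of both EGR2 hairpins, with 3 arrays a group. No explanation was tested.

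Against PLKO, the effect with shGAL was higher by 2.46 for Tchh, 1.98 for Acod1, 1.84 for Lcn2, 1.79 for Cyp2f2, 1.73 for Il33, 1.53 for Ifih1 and 1.53 for Dsc1. It was higher by 1.29 for Etv5, 1.20 for Mdfic, 1.17 for Idi1, 1.16 for Scel, 1.10 for Hacd1, 1.08 for Gfra2 and 1.05 for Calcb. Smaller positive differences were 0.86 for Fdps, 0.82 for Cry1, 0.76 for Cyp51 and 0.53 for Fst. Negative differences were -1.04 for Tktl1, -0.88 for Hmox1, -0.78 for Dll1, -0.72 for Camk1g, -0.72 for Kazald1, -0.53 for Gclc and -0.52 for Unc5c.

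Against the EGR2 hairpins, the effect with shGAL was higher by 2.52 for Gab2, 2.42 for Angpt2, 1.64 for Ccrl2, 1.51 for Acod1, 1.23 for Lcn2 and 1.22 for Slc1a1. It was higher by 1.19 for Mdfic, 1.08 for Gfra2, 1.03 for Hacd1, 0.99 for Scel, 0.96 for Etv5, 0.94 for Stard4, 0.94 for Spry2 and 0.84 for Calcb. For Scel the EGR2 hairpins went opposite ways, at -0.74 with shEGR2_40.9 (adjusted p = 0.0115) and 0.58 with shEGR2_38.9 (adjusted p = 0.0258). For Calcb they did so too, at -0.34 (adjusted p = 0.132) and 0.47 (adjusted p = 0.0139). Both genes thus also rose past the threshold with shEGR2_38.9. Smaller positive differences were 0.59 for Ifih1, 0.47 for Cdt1, 0.46 for Cry1 and 0.41 for Fst. Negative differences were -1.19 for Kazald1, -1.01 for Dlx3, -0.86 for Ly6k, -0.80 for Dll1, -0.79 for Unc5c, -0.76 for Cxcl14, -0.76 for Junb, -0.75 for Ryr1 and -0.73 for Smad6. They were -0.69 for Camk1g, -0.68 for Vegfa, -0.61 for Sncg, -0.59 for Axin2, -0.45 for Lfng, -0.44 for Nr4a1 and -0.43 for Trp63.

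These calls are not all stable. Against PLKO, the call of Fst ended in 13 of 23 alternatives, that of Cyp2f2 in 9 of 22 and that of Camk1g in 8 of 23. Against the EGR2 hairpins, that of Lfng ended in 11 of 27. The control-diet group of shEGR2_38.9 holds the array that stood apart. Means of Slc1a1 with the EGR2 hairpins lay below the dim level on both diets, at 5.92 to 6.12. Its difference of 1.22 is therefore not exact.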

How the results depend on the processing

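Of 55 named genes called with shGAL, 54 kept their direction in every alternative and 16 also kept their call, among them Il33, Stard4, Calcb, Il18, Idi1, Fdps, Sqle, Ifih1, Tktl1, Kazald1, Ly6k, Cxcl14, Hmox1, Dlx3 and Unc5c. The exception in direction was Cyp51, at -0.037 (adjusted p = 0.891) with the probe set of largest variance. The 230 calls with shGAL became 47 with only the arrays compared, 49 with the replicate block and only the 6 shGAL arrays, 384 with the mean of a gene's probe sets and 1057 with array weights. Without single arrays they ran from 59 to 528. Only the arrays of a comparison and the shEGR2_38.9 array that stood apart were left out, 1 at a time. Other arrays that enter the shared spread were always kept. Of 50 genes called with shGAL that the text describes, 26 lost the call with only the arrays compared, 25 with the replicate block and only the 6 shGAL arrays, 7 with the probe set of largest variance and 5 with the mean of a gene's probe sets. With the replicate block over all 24 arrays they were 316, which ended none of the calls of cholesterol genes. The 9 cholesterol rises became 4 with the replicate block and only the 6 shGAL arrays, and ran from 5 to 9 without single arrays. The 158 differences from PLKO became 105 with only the arrays compared and 776 with array weights, and ran from 82 to 343 without single arrays, and their split of 120 higher and 38 lower became 95 and 56 after renewed quantile normalization and 84 and 55 after a median shift. The 1416 differences from the EGR2 hairpins became 2614 with array weights and ran from 1000 to 1864 without single arrays. Fewer arrays leave fewer degrees of freedom. The other causes were not tested. Precision is limited by 3 arrays a group that the series calls technical replicates, by dim probe sets such as those of Cyp2f2 and Scel, and by the Gapdh end signal, which differed between the diets.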
